A study of Homo sapiens with 8 samples.

Results

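The cytosolic ribosomal proteins were described here in H1 human embryonic stem cells sorted by size. A probe set was taken as a member where the array annotation gave it 1 gene symbol and that symbol was RPL or RPS followed by a number, or RPLP0, RPLP1 or RPLP2. Kinases of the RPS6K family, RPS4X and its Y-linked relatives, and symbols ending in P and a number, which are mostly pseudogenes, were not members. The RPL genes of the large ribosomal subunit and the RPS genes of the small ribosomal subunit are described apart, with pooled values named as such, and neither name refers to the size of the cells. The rule found 119 of the 54675 probe sets on the array, for 59 of the 19775 genes that have a probe set of their own. The large subunit had 69 probe sets for 39 genes and the small subunit 50 probe sets for 20 genes. Another 15 ribosomal protein genes, RPL5, RPL13A and RPS2 among them, had only probe sets annotated to more than 1 gene and were not analysed here. Probe sets of 2 noncoding genes whose symbols begin with RPL26L1 and RPL34 match the same letters and were not counted as members.

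H1 is an established human embryonic stem cell line, here untreated and not genetically altered as far as the labels say, and grown over a layer of irradiated mouse embryonic fibroblasts. A flow cytometer separated the cells by forward and side scatter into a large and a small fraction. Each fraction was sorted 4 times, and each sort was measured on its own 1-colour Affymetrix expression array, which gives 4 small and 4 large arrays. The labels call the sorts biological repeats but do not say whether a small and a large sort came from the same culture, nor whether feeder cells were removed before the RNA was made. Every array received the same mass of labelled RNA, so a value is a level relative to the other RNA in the sample and not an amount per cell.

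A ribosome is made of ribosomal RNA and a large set of these proteins, most of them present as a single copy. The messenger RNAs of these proteins are among the most abundant in a growing cell. Most begin with a C followed by an unbroken run of pyrimidines, the 5′ terminal oligopyrimidine (TOP) tract, through which the mTOR pathway and the RNA-binding protein LARP1 set how much of each message is translated. A cell can therefore change ribosome production with little change in the level of these messages, and the arrays measure only the level.

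RefSeq transcription starts (GRCh38.p14) were found for 51 of the 59 genes. A start was counted as TOP where its first base was C and at least the next 4 bases were C or T, read on the gene's own strand. By this count 35 of the 51 genes (68.6%) had a TOP start, 21 of 32 in the large subunit and 14 of 19 in the small subunit, against 5.14% of all genes with a RefSeq start and 4.07% of all 35116 starts listed. Among the 11776 genes with a start that were bright enough to be tested below, the share was 6.78%. With a shift of up to 5 bases allowed in either direction, the share was 82.4% of the members, 29.1% of the tested genes and 25.2% of all genes. The following windows run from 10 bases before the annotated start through the first 15 transcribed bases, 5′ to 3′, with the TOP tract in capitals. They are a selection of genes with high or low differences described below, with the paralogs that have a RefSeq start and the parents RPL22 and RPL36A. RPLP2, RPS25 and RPS9, among others, are not shown, and no RefSeq start was found for the paralogs RPL3L and RPL39L. RPL19, RPS29, RPS27L, RPL36AL, RPL7L1, RPL10L and RPL26L1 have no C with such a tract at the annotated position, which says only that these letters are not there.
RPL19, chr17:39200313-39200337 (+): agctctttcctttcgctgctgcggc
RPL11, chr1:23691796-23691820 (+): gctccgctttCTCTTCCTgctctcc
RPL35, chr9:124861943-124861967 (-): cgcctacttcCTCTTTCCCTCggag
RPL36, chr19:5690285-5690309 (+): cggcgccagcCCTTCCgccacggcc
RPL41, chr12:56116623-56116647 (+): cttcgcctttCTCTCggccttagcg
RPL22, chr1:6199581-6199605 (-): cgctcacctcCCTTTCTaactccgc
RPL22L1, chr3:170870181-170870205 (-): ccgtagcttcCTCTCTgctctcgcg
RPL36A, chrX:101391001-101391025 (+): ctcgcggtttCTTTCTTTCCgcgcc
RPL36AL, chr14:49620612-49620636 (-): tcttccctttcctgttaggcgagag
RPL26L1, chr5:172958719-172958743 (+): tccaggggtcggcgaacgaaacgcg
RPL7L1, chr6:42879606-42879630 (+): gtgcggcgccgtagctaggagcgga
RPL10L, chr14:46651767-46651791 (-): gtagttaagagagcgcattttgact
RPS27, chr1:153990752-153990776 (+): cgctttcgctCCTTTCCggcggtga
RPS27L, chr15:63157463-63157487 (-): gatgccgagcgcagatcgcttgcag
RPS29, chr14:49598696-49598720 (-): agcgcgcagctggcagcggtggttg

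The deposited arrays differed in brightness. Their 75th percentiles lay between 41.9 and 106 units, 2.52-fold apart, with large array 3 and small array 3 the brightest, and the arrays were quantile normalized on the log2 scale. Unless another scale is named, levels below are these normalized log2 intensities, and differences between the cell fractions are small minus large on that scale. The control probe sets for the 3′ and 5′ ends of GAPDH and ACTB, a sign of RNA quality, were compared on the deposited log2 scale, before normalization. Their 3′ minus 5′ difference was highest on large array 1 (2.91), followed by small array 3 (2.66), and lowest on large array 3 (1.83). Of 10 tested embryonic stem cell markers, 1 was called, the surface protein PODXL, which was lower in small cells. The pluripotency factors NANOG (10.67 ± 0.08 in small and 10.73 ± 0.07 in large cells, SD, n = 4) and SOX2 were among those not called. Below 0 lay 9 of the 10 (median -0.10). Over all genes tested, 1.69% were called lower and 56% lay above 0. POU5F1 and TDGF1, also on the marker list, were not among the tested genes. None of the 7 tested fibroblast markers was called, and their median difference was -0.05. Below 0 were 5 of them, COL1A1 the lowest (-0.59 ± 0.28), and 2 lay above. These markers are human genes, and how far their probe sets read RNA of the mouse feeder cells was not tested. No marker of the other lists was called either. All 4 neuroectoderm markers lay above 0 (median 0.26, PAX6 at 1.77 ± 0.52 and OTX2 at 0.31 ± 0.14). PAX6 was dim (mean level 4.59), at 5.87, 5.46, 5.43 and 5.13 in small and 5.63, 3.22, 2.74 and 3.24 in large cells. Its large array 1 thus lay within the small range. SOX1 was dim as well (mean level 4.40, 0.22 ± 0.52). The 4 mesoderm and endoderm markers had a median of 0.30 and the 3 trophoblast markers one of -0.11. The part of such cells in the results on ribosomal proteins was not tested.

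The first question was whether small and large stem cells differ in the messages of the large ribosomal subunit. Of 39 genes, each represented by its brightest tested probe set, RPL19 was higher in small cells and none was lower at an adjusted p under 0.05 in limma, where 0.299% of all 14726 genes tested were higher, 1.69% lower and 1.99% called in either direction. The median difference of the 39 genes was 0.16, against 0.05 for all genes, and 32 of the 39 lay above 0 (82.1%, against 56% of all genes). At an unadjusted p under 0.05, 10 large-subunit genes were higher and none lower, against 8.51% and 8% of all genes. The values of the small and the large arrays were fully separate in 4 of the 39 genes, all higher in small cells, against 4.94% of all genes higher and 5.07% lower. The median moved with the scaling of the arrays. It was 0.10 on the deposited scaling, where that of all genes was -0.05, 0.25 with median centring or 75th percentile scaling, where that of all genes was 0.10 and 0.09, and 0.06 with cyclic loess, where that of all genes was 0.05. Above 0 were 28, 39, 39 and 25 of the 39 genes under these scalings, against 44%, 60.4%, 60.3% and 56.1% of all genes.

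**Figure D1:**
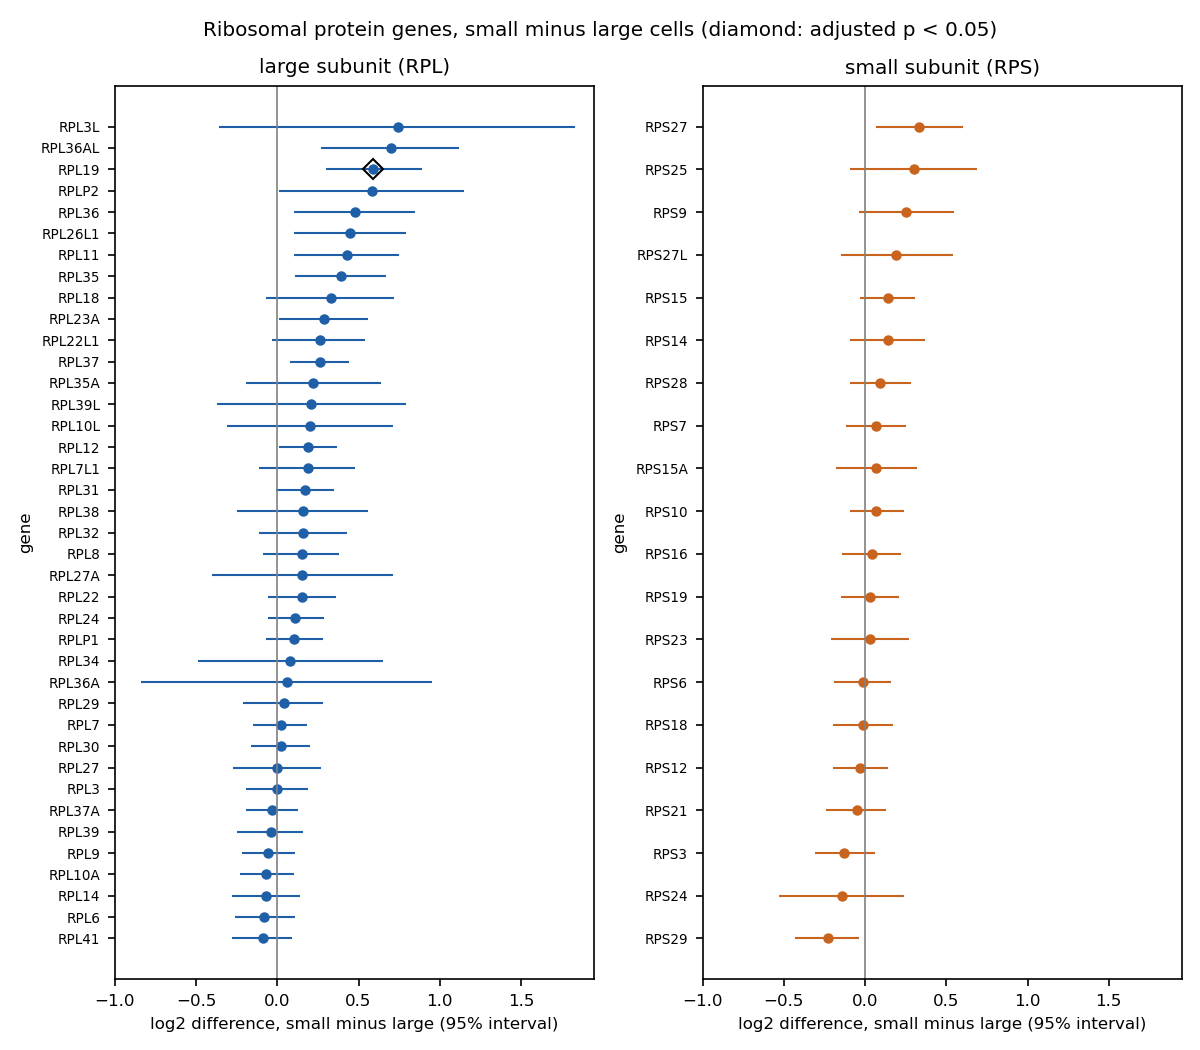
Log2 difference, small minus large cells, for the 39 large-subunit genes (left, blue) and the 20 small-subunit genes (right, orange), each at its brightest tested probe set, with its 95% interval from the limma fit (4 arrays per group). RPL19 (0.59), marked with a diamond, is the only gene with an adjusted p under 0.05, and small-subunit genes lie between -0.23 and 0.33.

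RPL19 is a protein at the surface of the large subunit that takes part in bridges to the small subunit. It stood at 12.38, 12.39, 12.55 and 12.26 on small arrays 1 to 4 and at 12.17, 11.78, 11.42 and 11.83 on large arrays 1 to 4. The highest large value, on array 1, lay below the lowest small value. The difference was 0.59 ± 0.14 (SE), a 1.51-fold higher level in small cells (95% interval of the difference 0.30 to 0.89, adjusted p = 0.0424). Over all tested probe sets in place of genes, the same probe set had an adjusted p of 0.0512 and was not called. When 1 array was left out the difference ran from 0.48 to 0.69, and the call was lost in 7 of the 8 fits (adjusted p of 0.0591 to 0.115). It was kept without large array 1 (adjusted p = 0.0112). In those 7 fits 2 to 47 of all genes were called higher, and without large array 1 it was 196, against 44 with all arrays. Under the other scalings the difference stayed at 0.49 to 0.71 and the call was lost: 0.56 on the deposited scaling (adjusted p = 1) and 0.71 with median centring (adjusted p = 0.207), under both of which no gene at all was called, 0.70 with 75th percentile scaling (adjusted p = 0.0789) and 0.49 with cyclic loess (adjusted p = 0.118). The call was also lost with the 3′ to 5′ difference as a covariate (0.50, adjusted p = 0.0717). Of all genes, 62 were higher with 75th percentile scaling, 46 with cyclic loess and 20 with that covariate.

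RPL36AL, a retained copy of RPL36A that encodes nearly the same protein, had the next smallest p. Its values were 11.32, 11.30, 10.86 and 11.08 in small and 10.97, 10.66, 9.90 and 10.24 in large cells, so that small array 3 fell below large array 1. The difference of 0.70 ± 0.20 (SE) did not pass (adjusted p = 0.0925). Leaving out large array 1 made it pass (0.87, adjusted p = 0.0219), as did array weights (0.88, adjusted p = 0.0145). So did array brightness as a covariate (0.61, adjusted p = 0.0155), an alternative chosen after the data were examined. Calls over all genes rose as well, from 44 higher to 196, 290 and 145 in that order.

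A further group of large-subunit genes had unadjusted p under 0.05 and did not pass over all genes. RPL36 was at 11.53, 11.81, 11.43 and 11.65 in small and 11.55, 11.40, 10.77 and 10.79 in large cells (0.48 ± 0.17, adjusted p = 0.185). Large arrays 3 and 4 were the low ones, and only large array 1 reached into the range of the small arrays. RPL11, which binds the 5S ribosomal RNA and can hold back the p53 regulator MDM2, was at 11.85, 11.77, 11.45 and 11.52 in small and 11.61, 11.22, 10.83 and 11.22 in large cells (0.43 ± 0.15, adjusted p = 0.182). RPL35, which lies at the exit of the tunnel through which the new protein leaves, was at 11.41, 11.38, 11.07 and 11.31 in small and 11.21, 10.85, 10.87 and 10.68 in large cells (0.39 ± 0.13, adjusted p = 0.151). In both, small array 3 was the lowest small array, and large array 1 was the only large array that reached into the small range. RPL37 had a smaller difference with less spread: 12.71, 12.66, 12.72 and 12.67 in small against 12.52, 12.40, 12.46 and 12.33 in large cells, without overlap (0.26 ± 0.08, adjusted p = 0.126). RPL12, of the stalk base where elongation factors bind, was at 12.74 to 12.75 on all 4 small arrays and at 12.44 to 12.68 on the large arrays, also without overlap (0.19, adjusted p = 0.274). The fourth gene without overlap was RPL31, whose unadjusted p was 0.0563 (0.17, adjusted p = 0.318). RPL23A, which contacts the signal recognition particle, had a difference of 0.29 (adjusted p = 0.276) with overlap.

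At the other end, RPL41, RPL6, RPL14, RPL10A and RPL9 had the lowest differences, from -0.09 to -0.06. RPL41, the smallest ribosomal protein, was at 12.77, 12.83, 12.75 and 12.93 in small and 13.04, 12.87, 12.80 and 12.95 in large cells, with full overlap (-0.09 ± 0.09, 95% interval -0.28 to 0.09). RPL9 was at 12.85 to 12.98 in small and 12.96 to 13.03 in large cells (-0.06 ± 0.08, 95% interval -0.22 to 0.11). At these probe sets, the brightest of each gene, a shift of more than 0.28 in either direction lay outside all 5 intervals. Dimmer probe sets of RPL10A (0.36, 95% interval -0.00 to 0.72) and RPL14 (0.08 and 0.71) were above 0. The acidic stalk protein RPLP1 had a difference of 0.10 (95% interval -0.07 to 0.28). RPLP2, its partner, was represented by a dim probe set (mean level 5.11) with a difference of 0.58 (95% interval 0.01 to 1.15, adjusted p = 0.289).

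**Figure D2:**
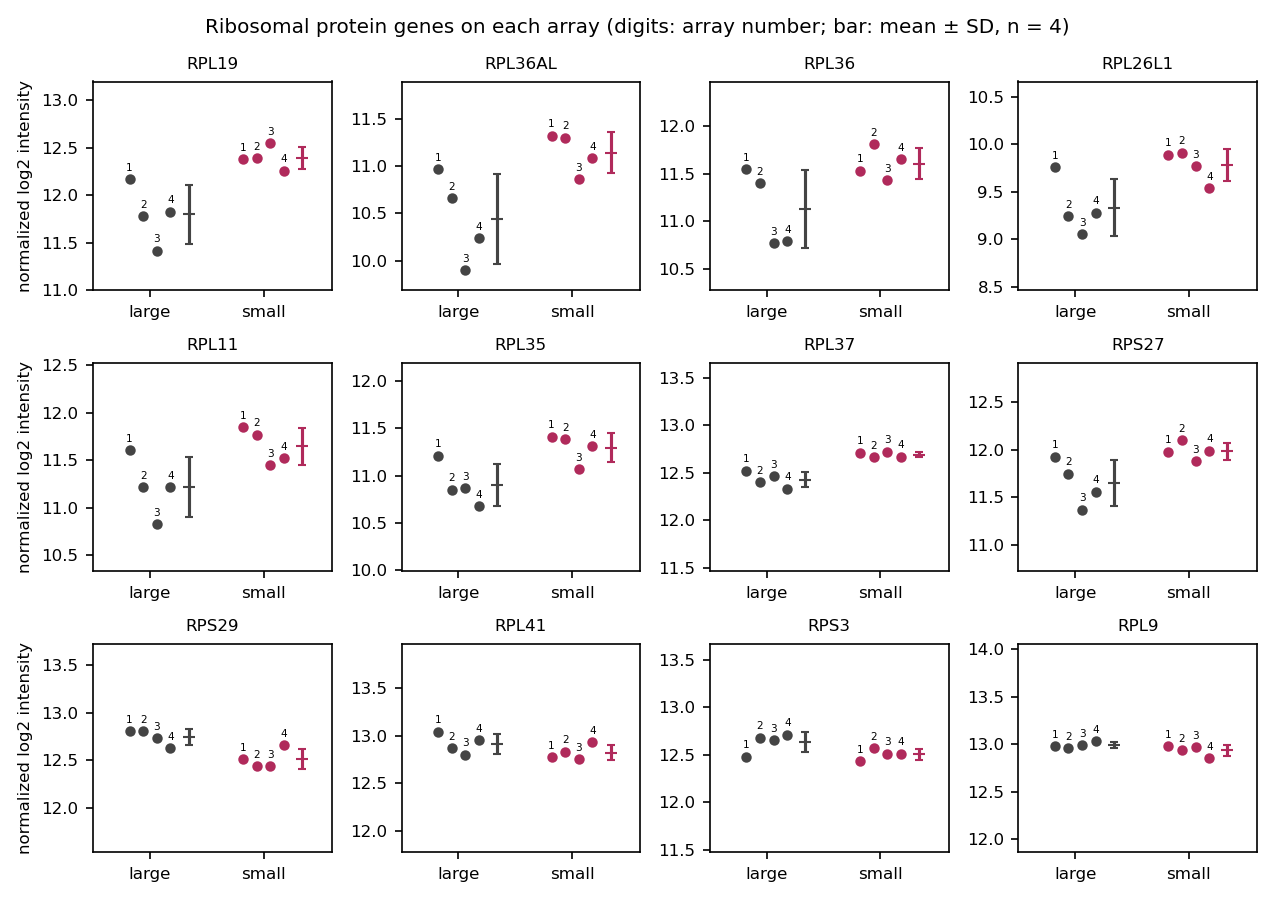
Normalized log2 intensity of 12 ribosomal protein genes on each array, large cells in grey and small cells in red, with the array number beside each point and the mean ± SD (n = 4) at the right of each group. Every panel spans the same log2 range, so that the separation of RPL19 (12.26 and above in small, 12.17 and below in large cells) can be set against the overlap of RPL9 and RPL41.

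For the small ribosomal subunit, none of the 20 genes was called in either direction, against 0.299% of all genes higher and 1.69% lower. At an unadjusted p under 0.05 there was 1 higher, RPS27, and 1 lower, RPS29, where 8.51% and 8% of all genes were, so neither count of 20 lay above the background. The median difference was 0.05, the same as that of all genes, and 13 of the 20 lay above 0 (65%, against 56%). It was -0.02 on the deposited scaling, 0.13 with median centring or 75th percentile scaling and -0.10 with cyclic loess, where the medians of all genes were -0.05, 0.10, 0.09 and 0.05, so that only with cyclic loess did it lie below that of all genes. Whether the 2 subunits differ from each other was not tested, since members were chosen with results known.

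RPS27, a zinc finger protein of the small subunit, was at 11.98, 12.10, 11.88 and 11.99 in small and 11.93, 11.75, 11.37 and 11.56 in large cells. Only large array 1 reached into the range of the small arrays, and the difference was 0.33 ± 0.12 (SE, adjusted p = 0.184). Its other tested probe set, dim at a level of 4.49, went the other way (-0.55 ± 0.30, adjusted p = 0.413). That probe set was at 3.85 to 4.55 in small and 4.56 to 4.99 in large cells, without overlap. RPS29, which also binds zinc, was at 12.51, 12.44, 12.44 and 12.66 in small and 12.81, 12.81, 12.73 and 12.63 in large cells. Here small array 4 lay just above large array 4, and the difference was -0.23 ± 0.09 (SE, 95% interval -0.43 to -0.04, adjusted p = 0.208). With 1 array left out it ran from -0.28 to -0.20, and over all other settings it stayed below 0 (-0.35 to -0.12).

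RPS15, which lies near the decoding site, was the 1 small-subunit gene of 20 without overlap, a share close to the 4.94% of all genes: 12.66, 12.68, 12.65 and 12.69 in small and 12.56, 12.50, 12.50 and 12.55 in large cells (0.14 ± 0.08, adjusted p = 0.403). RPS25, which internal ribosome entry sites of some viruses need, had a difference of 0.30 ± 0.18 (adjusted p = 0.445). Its small array 3 (11.44) lay below all 4 large arrays (11.55 to 12.11), while the other small arrays were between 12.12 and 12.33, and without it the difference was 0.51 (adjusted p = 0.072). RPS9 had a difference of 0.25 ± 0.14 (adjusted p = 0.392) that rested on large array 1, at 11.73 against 12.36 to 12.40 on the other large arrays; without that array the difference was 0.08. RPS24, RPS3, RPS21 and RPS12 made up the lowest end with RPS29, at -0.14, -0.13, -0.05 and -0.03. RPS24 turned to 0.08 without small array 3. RPS6, the substrate of the S6 kinases below mTOR, had a difference of -0.01 (95% interval -0.19 to 0.16).

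The count of called members depended on large array 1 and small array 3, the arrays with the highest 3′ to 5′ difference of their groups. Without both, 9 of 38 large-subunit genes were higher in small cells (RPL11, RPL18, RPL19, RPL26L1, RPL35, RPL35A, RPL36, RPL36AL and RPL38, by 0.48 to 0.98) and 2 of 20 small-subunit genes (RPS25 and RPS27), with 0 lower. Calls over all genes rose in the same fit, from 44 higher and 249 lower to 317 and 459. Without large array 1 alone, 5 large-subunit genes were higher, RPL11, RPL19, RPL26L1, RPL35 and RPL36AL, and 196 of all genes were higher and 357 lower. Without small array 3 alone no member was called (47 and 206 of all genes). These arrays were left out because of a quality measure, and its part in the result was not tested beyond the covariate fit. In that fit no member was called, with 20 of all genes higher and 135 lower. For member genes with a level from 8 to 12, large array 1 and small array 3 were also the highest large and the lowest small array, as described below. Leaving both out therefore widens the difference of such genes by construction. With large array 3 and small array 3, the brightest, left out, no member was called either, with 5 of all genes higher and 35 lower. The medians in that fit were 0.17 and 0.07 for the large and small subunit.

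The median difference of the members was largest in the middle range of brightness. Of the 104 genes with a mean level of 12 or over, 35.6% were ribosomal protein genes, 21 of the large and 16 of the small subunit. Among member probe sets of both subunits at 12 or over, the median difference was 0.05 (48 probe sets), and among those from 8 to 12 it was 0.26 (30 probe sets, of which 26 above 0). All probe sets of the same brightness had medians of -0.01 and 0.04, with 47.9% and 55.6% above 0. The pattern held in each subunit, with 0.27 (21 probe sets) in the large and 0.19 (9 probe sets) in the small subunit from 8 to 12, and 0.11 (26) and 0.02 (22) at 12 or over. Below 8, where the median standard error was 0.27, the member median was 0.06 and the differences ran from -1.01 to 1.20. Separation of the groups followed another order. At 12 or over 7 of 48 member probe sets, those of RPL19, RPL37, RPL12 and RPL31 included, were higher without overlap (14.6%, all probe sets 7.69%). From 8 to 12 it was 1 of 30 (3.33%, all 5.91%) and below 8 it was 2 of 31 (6.45%, all 3.5%). Lower without overlap were 2 below 8 (6.45%, all 4.97%) and 0 in each other range (all 8.27% and 5.13%). The deposited intensities of the brightest members varied little between arrays: over the 37 member genes at 12 or over, the highest array exceeded the lowest by a median of 1.63-fold, against 1.79-fold over all 104 genes of that brightness, 1.96-fold over the 16 members from 8 to 12 and 3.37-fold over all genes from 8 to 12. RPL10A, for example, ran from 5908 to 9281 units. Whether differences of the brightest members are compressed at the top of the scale was not tested.

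**Figure D3:**
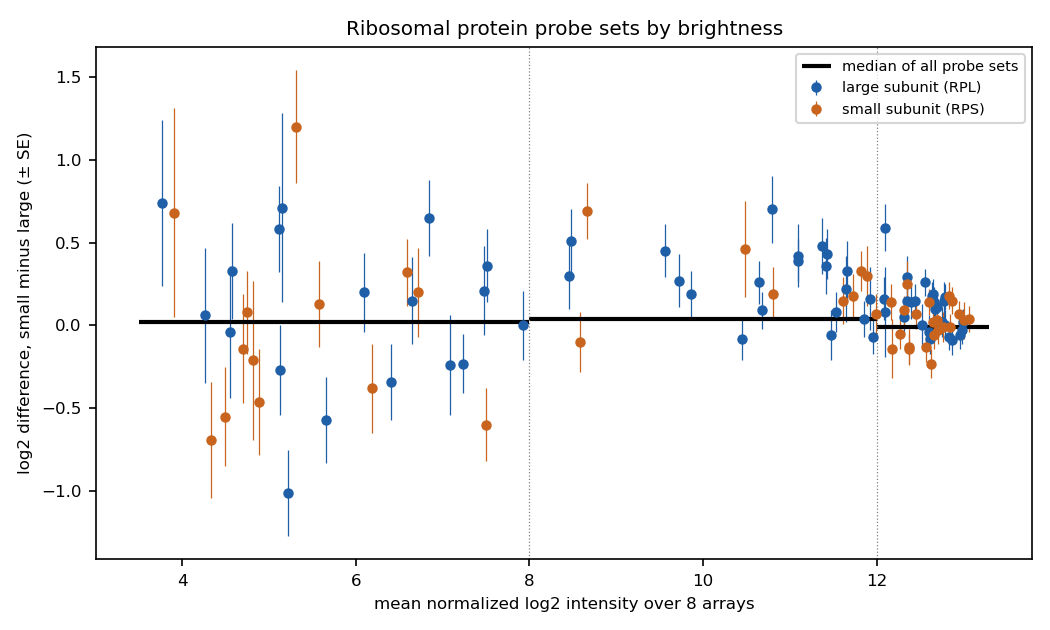
Difference, small minus large cells (± SE), of the 65 large-subunit (blue) and 44 small-subunit (orange) tested probe sets against their mean normalized log2 intensity, with dotted lines at 8 and 12. Black bars are the medians of all tested probe sets in each range (0.02, 0.04 and -0.01), and 26 of the 30 members from 8 to 12 lie above 0, while members over 12 gather near 0.

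Member genes from 8 to 12 varied from array to array within the cell fractions as well as between them. Each gene's deviation from its own mean over the 8 arrays was taken, and its median over the 12 large-subunit genes was 0.32, 0.34, -0.02 and 0.18 on small arrays 1 to 4 and 0.18, -0.11, -0.29 and -0.24 on large arrays 1 to 4. Over the 4 small-subunit genes it was 0.33, 0.20, -0.30 and 0.20 on the small and 0.16, -0.12, -0.32 and -0.21 on the large arrays. On large array 1, 11 of the 12 large-subunit and all 4 small-subunit genes lay above their own mean, and on large array 4 none of either did. Small array 3 differed between the subunits, with 5 of 12 and 1 of 4 genes above. Small array 3 and large arrays 3 and 4, the low ones of their groups, had the highest 75th percentiles (6.72, 6.75 and 6.33 on the deposited log2 scale). Large array 1, the high one of its group, had the lowest (5.45). The array pattern was not particular to these genes: the 56 mitochondrial ribosomal protein genes of this brightness had medians of 0.24, 0.35, -0.06 and 0.18 on the small and 0.02, -0.05, -0.36 and -0.28 on the large arrays. The 3291 genes from 8 to 12 outside the family had medians within -0.04 to 0.04, which quantile normalization holds near 0. The 37 member genes of both subunits at 12 or over had pooled medians of -0.03 to 0.08. The part of array brightness in these differences was tested only as a covariate. With array brightness as a covariate the medians of the large and small subunit were 0.14 and 0.04, near those without it (0.16 and 0.05). RPL19 (0.57, adjusted p = 0.0252) and RPL36AL were then called. Calls over all genes rose in the same fit, from 44 higher and 249 lower to 145 and 405.

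**Figure D4:**
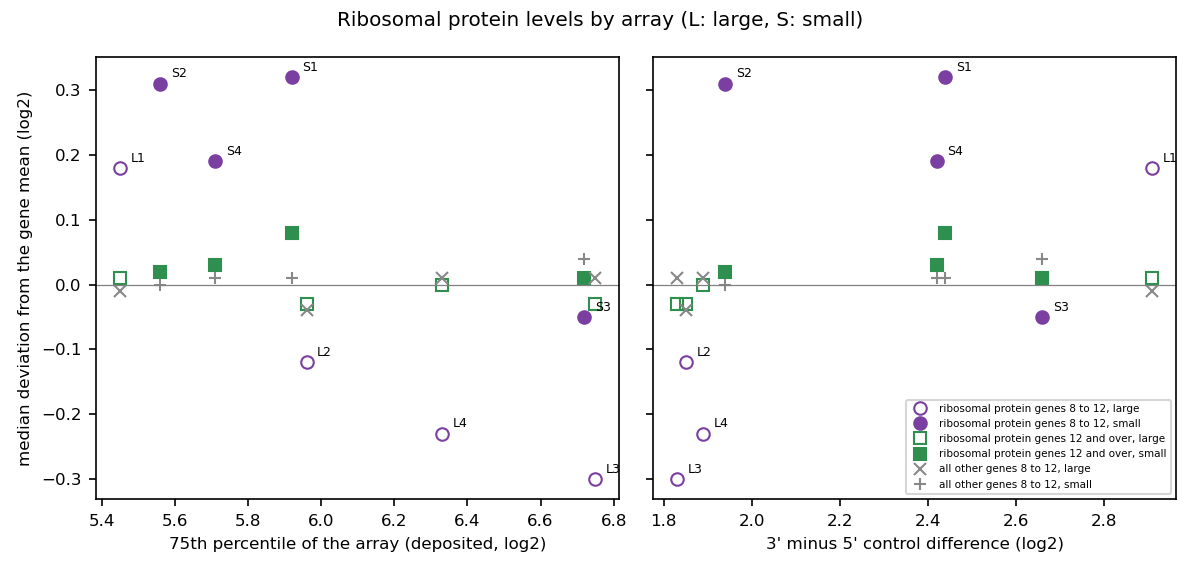
Median deviation of ribosomal protein genes of both subunits from their own mean over 8 arrays, for genes with a level of 8 to 12 (circles, 16 genes) and 12 and over (squares, 37 genes) and for other genes from 8 to 12 (x for large and + for small cells), against the array's 75th percentile (left) and the 3′ minus 5′ control difference (right). Filled circles and squares are small cells and open ones large cells; the circles run from 0.32 on small array 1 to -0.30 on large array 3, while the other genes stay near 0.

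Several genes have more than 1 probe set, and these did not always move alike. Of the member probe sets, 65 of 69 in the large and 44 of 50 in the small subunit were bright enough to be tested, and the 10 others had mean levels below the lowest level tested. None was called over all 32768 probe sets, of which 0.198% were higher, 1.3% lower and 1.5% called in either direction. At an unadjusted p under 0.05, 13 were higher and 2 lower in the large subunit and 4 and 2 in the small subunit, against 6.73% and 8.53% of all probe sets. The groups did not overlap for 6 higher and 1 lower in the large subunit and 4 higher and 1 lower in the small subunit, against 3.89% and 5.46% of all probe sets. Above 0 were 49 of 65 and 26 of 44, against 52.4%. Among the 14 large-subunit genes with several tested probe sets, 9 had both signs, as had 7 of the 16 such small-subunit genes. In the 3 genes whose probe sets lay over 1 apart, RPL35A, RPL37 and RPS27L, a probe set with a level under 8 was at an end of the range.

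RPL35A, a large-subunit protein, had the widest gap. Its brightest probe set differed by 0.22 ± 0.20, and by 0.47 without small array 3, which stood at 11.04 against 11.97 to 12.03 on the other small arrays. The next brightest differed by -0.06 ± 0.15. The dimmest, an _x_at probe set with a level of 5.22, was at 4.95, 4.76, 4.26 and 4.88 in small and 5.92, 6.03, 5.39 and 5.56 in large cells, lower in small cells without overlap (-1.01 ± 0.26, adjusted p = 0.0722). Its plain _at probe set, with a level of 6.84, was higher in small cells, also without overlap (0.65 ± 0.23, adjusted p = 0.18). So 2 probe sets of 1 gene separated the groups in opposite directions, and neither passed. RPL37 had differences of 0.26, 0.51 and 0.30 on 3 probe sets and -0.57 on the dimmest (level 5.66). RPS21 differed by -0.05 on its brightest probe set and by 0.69 ± 0.17 on its plain _at probe set (level 8.66), which was at 8.84, 9.39, 8.86 and 8.92 in small and 8.21, 8.61, 8.18 and 8.25 in large cells (adjusted p = 0.0629). RPS24, whose transcripts are alternatively spliced at the 3′ end, was below 0 on both probe sets (-0.14 and -0.60).

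**Figure D5:**
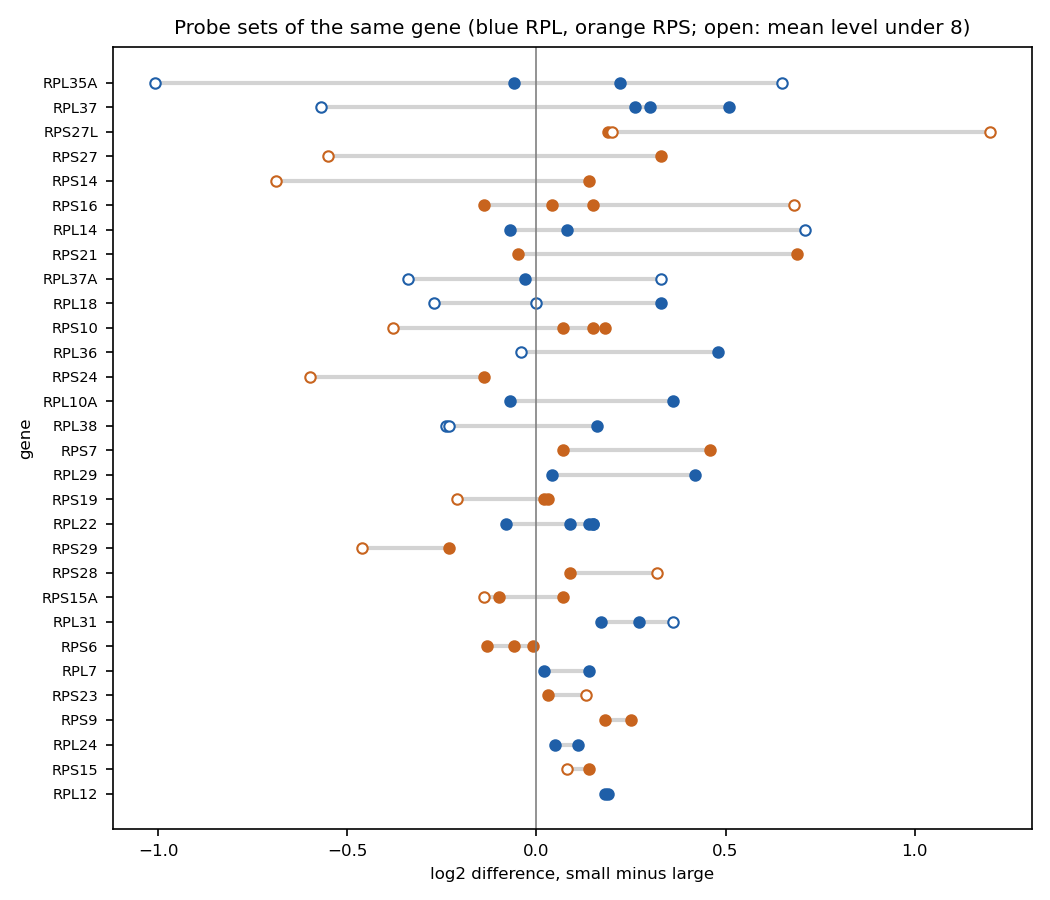
Differences, small minus large cells, of the tested probe sets of each ribosomal protein gene that has more than 1, joined by a grey line; blue marks large-subunit and orange small-subunit genes, and open circles mark probe sets with a mean level under 8. RPL35A spans -1.01 to 0.65, while the probe sets of RPL12 (0.18 and 0.19), RPL24 and RPS9 lie close together.

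The suffixes _x_at and _s_at mark probe sets that may measure more than 1 transcript. This family has many near-identical pseudogenes, so that a member's value can include other copies. In the large subunit the median difference was 0.26 for 22 plain _at probe sets, 0.09 for 21 _s_at and 0.14 for 22 _x_at probe sets. In the small subunit it was -0.04 (16), 0.09 (17) and 0.03 (11). Of 11 probe sets annotated to ribosomal protein pseudogenes, 10 were tested and none was called, with a median of -0.18 and a range of -0.86 (RPS16P5) to 0.53 (RPS10P7), 4 above 0 and 6 below.

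Paralogs, which can take the place of their parent protein in the ribosome or are used in particular tissues, had no called member. RPL26L1, a close copy of RPL26, was at 9.89, 9.91, 9.77 and 9.54 in small and 9.76, 9.24, 9.05 and 9.28 in large cells. Only large array 1 lay within the small range (0.45 ± 0.16, adjusted p = 0.183), and without it the gene passed (0.59, adjusted p = 0.0432). RPL22L1 was at 10.79, 11.01, 10.70 and 10.58 in small and 10.50, 10.26, 10.74 and 10.55 in large cells (0.26 ± 0.13, adjusted p = 0.368), and its parent RPL22, which restrains RPL22L1 in other cells, had a difference of 0.15 ± 0.10. For RPL7L1 the difference was 0.19 ± 0.14 and for RPL7 0.02 ± 0.08. RPS27L, a target of p53 in other cells, was at 11.20, 10.92, 10.46 and 11.02 in small and 11.00, 10.67, 10.51 and 10.64 in large cells (0.19 ± 0.16). Its dimmest probe set (level 5.31) differed by 1.20 ± 0.34, without overlap between the groups, and did not pass either (adjusted p = 0.109).

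The paralogs known from muscle and testis were dim. RPL3L, known from striated muscle, had a mean level of 3.77, close to the lowest level tested, and a difference of 0.74 ± 0.51, while RPL3 had one of 0.00 ± 0.09. RPL10L, known from testis, differed by 0.20 ± 0.24 at a level of 6.09. RPL39L, also known from testis, ran from 7.20 to 8.12 in small and from 6.65 to 7.89 in large cells (0.21 ± 0.27), and RPL39 differed by -0.04 ± 0.10. For RPL36A the 1 probe set that names it alone had a level of 4.26 and a difference of 0.06 ± 0.42, too imprecise to set beside RPL36AL.

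The presence of a TOP start at the exact annotated base did not sort the members by difference. With the shift of up to 5 bases, 42 of the 51 members have a TOP start. Members were not split that way, so genes whose tract lies beside the annotated base, such as RPL19, count as without. The median was 0.15 for the 21 large-subunit genes with a TOP start and 0.16 for the 11 without, and 0.03 (14 genes) and 0.09 (5 genes) in the small subunit. Among all other genes it was 0.05 in both classes (763 with and 10962 without). FAU, whose product includes a ribosomal protein of the small subunit under another name, had a difference of 0.18 ± 0.11 (adjusted p = 0.446).

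Other genes of the same system were taken from lists. The first list held 12 tested transcripts with a known TOP tract, most of which encode other translation or RNA-binding proteins. Of these EIF3F, a subunit of initiation factor eIF3, was higher in small cells (0.40 ± 0.09, adjusted p = 0.0383). HNRNPA1, a splicing factor, was lower (-0.64 ± 0.15, adjusted p = 0.041), and the list median was 0.00. Of all genes 0.299% were called higher and 1.69% lower. EIF3F was measured by an _s_at and HNRNPA1 by an _x_at probe set. The elongation factors EEF1A1 and EEF2 had differences of -0.12 ± 0.09 and 0.20 ± 0.10. Of 33 tested ribosome biogenesis genes none was called, 27 lay above 0 (81.8%, against 56% of all genes) and the median was 0.17 (all genes 0.05), with the small-subunit assembly factor NOB1 at 0.48 ± 0.17 and nucleolin, NCL, at -0.25 ± 0.13. Of 13 regulators none was called and the median was -0.07. The translation inhibitor EIF4EBP1, held back by mTOR, was at 0.81 ± 0.27 (adjusted p = 0.151), LARP1 at 0.00 ± 0.18, MYC at -0.07 ± 0.21 and MYCN at -0.08 ± 0.17. The 75 mitochondrial ribosomal proteins, which belong to a separate ribosome, had a median of 0.36, with 71 above 0 (94.7%), and, where 0.299% of all genes were called higher, had MRPL41 (0.89 ± 0.19, adjusted p = 0.0324) and MRPL9 (0.57 ± 0.12, adjusted p = 0.0325) called higher in small cells.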

How the data were processed

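The values are linear intensities per probe set as deposited. Per the series design text, Affymetrix software read the scans, which then went into Rosetta Resolver (version 7.1). The sources used here do not say which program wrote the deposited intensities or how it scaled them. Control probe sets (62) were left out, a pseudocount of 1.8136 (the 10th percentile) was added, and log2 values were quantile normalized because the arrays' 75th percentiles spanned 1.30 on that scale. Probe sets with a mean above the 40th percentile (3.623) were tested: 32768, or 14726 genes at their brightest probe set. Symbols come from GEO's platform annotation, updated by gene ID (41043 of the 41097 probe sets with 1 symbol; 1801 have several and 11777 none). The fit of small against large arrays used R 4.3.3 and limma 3.58.1 (lmFit, eBayes with a variance trend, two-sided, Benjamini-Hochberg over all features, threshold 0.05). Errors of differences are moderated standard errors, and the number of arrays limits precision (median 0.24 over genes). The procedure was tested on simulated data.

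Members, lists and alternatives were chosen with earlier results of these data known. Named genes are those called, the 5 highest and 5 lowest of each subunit, paralogs with parents, FAU, and genes whose probe sets lie over 1 apart; RPL11, RPL12, RPL18, RPL23A, RPL31, RPL35, RPL38, RPLP1, RPS6 and genes of other lists were added after their values were seen. Array brightness as a covariate and leaving out both brightest arrays were added later. Equal replicate numbers were taken to pair the arrays only if every correlation exceeded 0.1, and they did not: deviations of small and large arrays with the same number correlated at 0.0968, 0.102, 0.206 and 0.0181.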

Additional observations from a re-analysis of the deposited data

Results flagged for a closer look

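For 3 of the 33 named genes a single array stood apart from the other 3 of its group. RPS9 was at 11.73 on large array 1, against 12.36 to 12.40 on the others. RPL35A was at 11.04 on small array 3, against 11.97 to 12.03. RPS21 was at 12.22 on large array 2, against 12.32 to 12.33. Chance gives such a gap in about 1 in 20 groups, and 66 groups were examined.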

How the results depend on the processing

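The number of member calls depended on the settings. RPL19 was the 1 large-subunit gene called, and that count was 0 with cyclic loess, 75th percentile scaling, median centring, the deposited scaling, no filter, no variance trend, without _x_at and _s_at probe sets, with the mean of all probe sets, at a threshold of 0.01, with the 3′ to 5′ covariate and without the brightest array of each group. It was 2 at a threshold of 0.1 and with the brightness covariate, 3 with the replicate block, 6 with array weights and 9 without large array 1 and small array 3. Calls over all genes, 44 higher and 249 lower, changed too. They rose to 240 and 513 with the block, 290 and 534 with array weights and 317 and 459 without both arrays. They were 145 and 405 with the brightness covariate and 160 and 433 at a threshold of 0.1. They fell to 20 and 135 with the 3′ to 5′ covariate and 5 and 35 without the brightest array of each group. At a threshold of 0.01 they were 2 and 51. Cyclic loess gave 46 and 268, and 75th percentile scaling 62 and 148. No gene at all was called without the variance trend, with median centring or on the deposited scaling. Leaving out 1 array gave 0 to 5 large-subunit calls, with 2 to 196 of all genes higher and 60 to 357 lower. Small-subunit genes called higher were 0, but 1 with array weights and 2 without large array 1 and small array 3. Large-subunit probe sets called were 0, but 1 with a pseudocount of 16 or the 60th percentile filter, 2 with array weights or a threshold of 0.1, 3 with the brightness covariate, 4 with the replicate block, 8 without large array 1 and small array 3 and 0 to 3 with 1 array left out. Small-subunit probe sets were 0, but 1 with 75th percentile scaling, the 60th percentile filter, array weights, a threshold of 0.1 or the brightness covariate. They were 2 with the replicate block or without large array 1 and small array 3. Of all probe sets, 0.198% were higher and 1.3% lower in the main fit. The shares in the other fits are not given here, so these probe-set counts cannot be read against a background. No member was called lower in small cells at gene level under any alternative.

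The large-subunit median of 0.16 was 0.10 on the deposited scaling, 0.25 with either centring on the median or 75th percentile scaling, 0.06 with cyclic loess, 0.27 without _x_at and _s_at probe sets (19 genes), 0.21 without large array 1 and small array 3 and 0.13 to 0.20 with 1 array left out. The small-subunit median of 0.05 was -0.02, 0.13, 0.13 and -0.10 under these scalings, -0.04 without _x_at and _s_at probe sets, -0.00 with the mean of all probe sets and 0.02 to 0.07 with 1 array left out.

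Signs of uncalled members turned. The scalings by median and 75th percentile raised the median of all genes to 0.10 and 0.09, and of the members that turned with median centring only RPL14 lay above that median. With 75th percentile scaling, as with median centring, RPL14 was 0.12, RPL6 0.04, RPL41 0.01, RPS12 0.06, RPS21 0.09, RPS3 0.01, RPS24 0.04 and RPL39 0.08, and RPL10A was 0.02 and 0.03. With cyclic loess RPL3 and RPL7 were -0.15. Without _x_at and _s_at probe sets, and with a plain _at probe set first, RPL14 was 0.71, RPS27 -0.55, RPS21 0.69 and RPL22 -0.08. With the mean of all probe sets RPL10A was 0.15, RPL14 0.24, RPS27 -0.11, RPS21 0.32 and RPL35A -0.05. RPS24 ran from -0.26 to 0.08 with 1 array left out and was 0.08 without small array 3, 0.15 without large array 1 as well and 0.04 without large array 3 and small array 3, where RPL39 was 0.06. The causes were not tested. The block, which called RPL11, RPL19 and RPL36AL (0.70, adjusted p = 0.0075), used the shared replicate numbers, which the correlations given with the processing do not show to be pairs; 3 of the 4 small arrays correlated more with the large array of their own number than with any other (0.0181 against 0.0456 for number 4).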
